A study of Mus musculus with 8 samples.

Results

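The genes described here encode proteins that carry calcium ions across the plasma membrane or in and out of the endoplasmic reticulum, with their auxiliary subunits and sensors. They comprise voltage-gated calcium channel subunits (Cacna1, Cacna2d, Cacnb and Cacng families) and the release channels of internal stores (Ryr and Itpr). The calcium pumps and exchangers (Atp2a, Atp2b and Slc8a) and the store-operated entry genes (Stim and Orai) complete the set. Members were chosen by gene symbol, with earlier results of these data known. The AMPA receptor auxiliary genes Cacng2, Cacng3 and Cacng8 were left out, though several Cacng genes that were kept also act on AMPA receptors. The rule found 44 of the 22337 genes in the deposited table. They were measured by RNA-seq in the nucleus accumbens, the reward-related region of the ventral striatum, of male C57BL/6 mice with no allele or transgene named. The series compared 4 libraries of mice exposed long-term to morphine, a mu opioid receptor agonist, with 4 libraries of mice that received saline. The sources used here give no dose, schedule, age or time since the last exposure.

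Calcium enters neurons through voltage-gated channels, which have a pore-forming alpha1 subunit. Many of them also hold an intracellular beta and an extracellular alpha2delta subunit that set how many channels reach the membrane. Inside the cell, inositol trisphosphate receptors and ryanodine receptors release calcium from the endoplasmic reticulum, and Stim proteins sense its loss and open Orai channels. Pumps of the plasma membrane (Atp2b) and of the endoplasmic reticulum (Atp2a), with sodium-calcium exchangers (Slc8a), bring calcium down again. In striatal projection neurons these routes link synaptic input and dopamine to firing and to gene expression.

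Levels are FPKM (fragments scaled to transcript length and to the mapped fragments of the library) as the authors deposited them. Being scaled to length, they are set side by side between genes. Coverage along the transcripts was not checked, so orders and shares among genes of unlike length are approximate. A log2 change is the morphine mean minus the saline mean of log2(FPKM + 1), a scale on which low-level genes appear to change less than they do. Each p-value comes from limma with Benjamini-Hochberg adjustment across the 12536 genes tested, and a gene passed at an adjusted p under 0.05. The values summed to between 480003.6 and 540104.1 FPKM per library, and read depth is unknown. Because no label states that each replicate was its own animal, a p-value here reflects only the scatter among these libraries, some of which may be technical. The nucleus accumbens label was checked against the medium spiny neuron genes Drd1 and Ppp1r1b, which were detected in all 8 libraries, and against Slc17a7, a gene of cortical glutamatergic neurons that accumbens projection neurons are not known for. Drd1 had 7.16, 3.05, 3.07 and 2.16 FPKM in the morphine libraries and 21.31, 19.92, 87.2 and 23.4 FPKM in the saline libraries (replicates 1 to 4). Ppp1r1b had 118.07, 64.63, 72.79 and 65.05 FPKM in the morphine libraries and 318.16, 340.97, 1454.6 and 321.65 FPKM in the saline libraries. Slc17a7 had 139.48, 105.76, 109.48 and 105.76 FPKM in the morphine libraries and 90.82, 98.02, 19.61 and 91.41 FPKM in the saline libraries. Slc17a7 thus exceeded Drd1 in every library except saline replicate 3, which stood apart from the other saline libraries in both genes. Of all tested genes, 316 passed, 130 higher and 186 lower with morphine. After removal of the mitochondrially encoded genes and rescaling of the others, 74 were higher and 270 lower, so that 21.5% of calls were higher where 41.1% had been.

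Of the 44 calcium genes 37 reached an FPKM of 1 in at least 4 libraries and were tested. Of these 34 did so in all 8 libraries. The 7 genes that were not tested were Cacna1f, Cacna1s, Cacna2d4, Cacng1, Ryr1, Itpr3 and Atp2a1, whose highest single value was 1.1 FPKM. Most of them are best known outside the brain, Cacna1s, Cacng1, Ryr1 and Atp2a1 from skeletal muscle and Cacna1f from the retina. With morphine, Cacna2d2, Cacna2d3 and Ryr3 fell and Atp2b4 rose. These 4 genes are 10.8% of the 37 tested, where 2.52% of all tested genes passed (1.04% higher and 1.48% lower). The other 33 genes did not pass, with log2 changes between -0.72 and 0.76. Of the 37, 18 had a change above 0 and 19 below 0, with a median of -0.06, against 0.01 over all genes tested. The groups did not overlap in 9 genes, 3 with morphine higher and 6 with morphine lower, whereas 12.7% of all tested genes were arranged so (6.56% higher and 6.1% lower). At an unadjusted p under 0.05 there were 12 of the 37 genes, against 20.1% of all tested genes. In whole-tissue RNA, fewer cells of a type, less RNA per cell and a different share of neighbouring tissue in the dissected piece cannot be told apart. The labels do not record whether dissection differed between libraries.

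**Figure D1:**
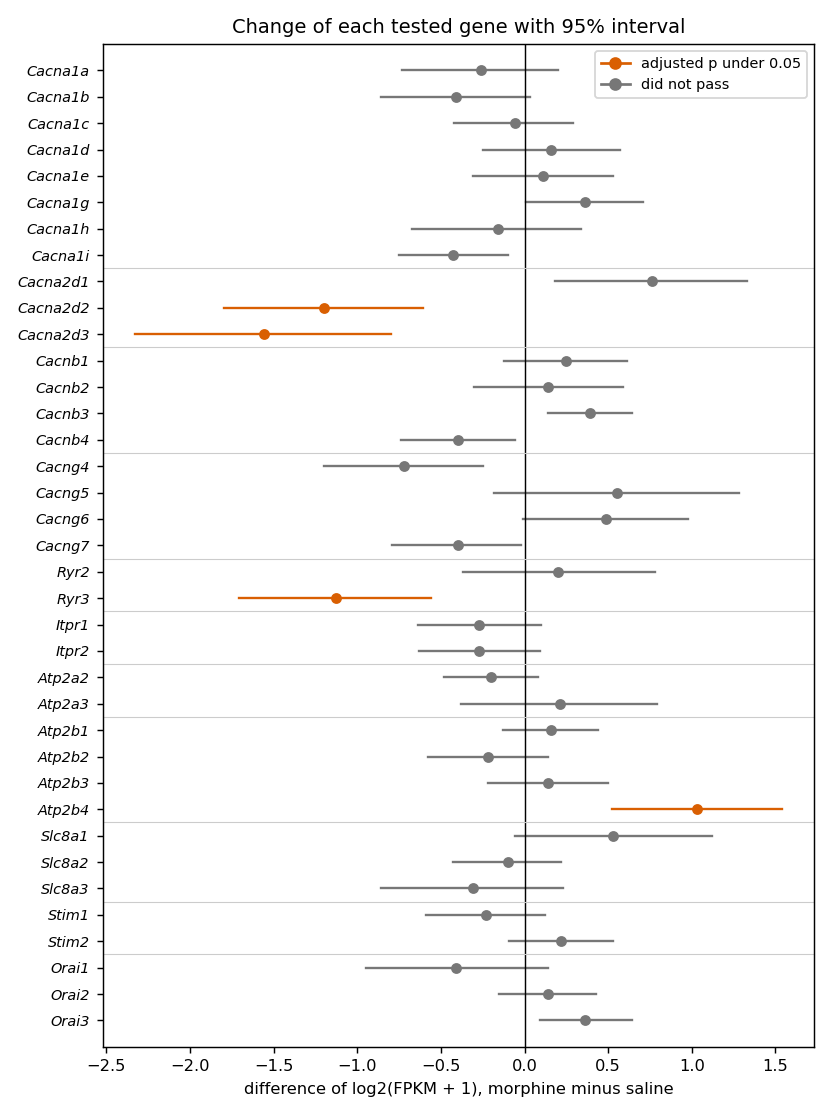
Difference of log2(FPKM + 1), morphine minus saline, for each of the 37 tested calcium genes (points) with its 95% interval from limma (lines), grouped by family from the alpha1 subunits at the top to the Orai genes at the bottom. The 4 genes that passed are in orange: Cacna2d2, Cacna2d3 and Ryr3 lie left of 0 and Atp2b4 right of it.

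Of the 3 tested alpha2delta genes, Cacna2d3 and Cacna2d2 fell and Cacna2d1 did not pass. Cacna2d1, the most abundant of the family and the main target of gabapentin, had the higher mean in the morphine libraries. The promoter windows of these 3 genes are shown first, with that of the pump gene Atp2b4, because 3 of them passed, in different directions, and Cacna2d1 is the most abundant of the family. Each is the 250 bases before a transcription start in RefSeq (GRCm38.p6), 5′ to 3′ on the gene's strand, with the GC box (GGGCGG, or CCGCCC on the other strand) in capitals. The windows are chr5:15934441-15934690 (plus strand) for Cacna2d1, chr9:107399630-107399879 (plus strand) for Cacna2d2, chr14:29721865-29722114 (minus strand) for Cacna2d3 and chr1:133753748-133753997 (minus strand) for Atp2b4.
Cacna2d1: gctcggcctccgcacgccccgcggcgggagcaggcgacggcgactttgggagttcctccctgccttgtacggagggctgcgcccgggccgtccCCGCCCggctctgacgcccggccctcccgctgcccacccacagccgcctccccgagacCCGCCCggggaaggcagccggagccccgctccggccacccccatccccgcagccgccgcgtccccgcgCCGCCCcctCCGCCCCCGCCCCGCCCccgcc
Cacna2d2: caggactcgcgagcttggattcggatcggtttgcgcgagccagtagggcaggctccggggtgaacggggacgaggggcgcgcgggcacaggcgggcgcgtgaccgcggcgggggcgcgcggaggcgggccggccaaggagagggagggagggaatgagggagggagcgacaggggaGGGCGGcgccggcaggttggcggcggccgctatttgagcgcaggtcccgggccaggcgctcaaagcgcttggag
Cacna2d3: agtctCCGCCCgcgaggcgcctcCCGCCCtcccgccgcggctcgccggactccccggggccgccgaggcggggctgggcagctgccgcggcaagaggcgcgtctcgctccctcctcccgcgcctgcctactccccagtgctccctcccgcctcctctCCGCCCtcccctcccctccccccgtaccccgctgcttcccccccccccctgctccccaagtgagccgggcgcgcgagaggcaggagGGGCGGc
Atp2b4: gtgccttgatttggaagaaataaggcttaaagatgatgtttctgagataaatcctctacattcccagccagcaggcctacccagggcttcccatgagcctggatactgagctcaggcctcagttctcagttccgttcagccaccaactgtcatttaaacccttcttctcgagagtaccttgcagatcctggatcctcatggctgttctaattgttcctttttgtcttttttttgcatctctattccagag
The 3 alpha2delta windows were GC-rich at 82.4% (Cacna2d1), 74.4% (Cacna2d2) and 80% (Cacna2d3), and held 6, 1 and 4 GC boxes in that order, overlapping matches counted. The Atp2b4 window had 45.6% GC, 2 CpG dinucleotides and no GC box. It lies inside the GENCODE span of the gene, as the Cacna2d2 window does for its gene, and other starts of Atp2b4 are not in the table used. Ryr3, which also passed, had no matched window. RefSeq windows were matched for 34 of the 44 genes, 46 windows in all. A GC box stood in 28 of the 46 (60.9%), and in 32.7% of all 32851 windows. The 46 windows had a median of 63.2% GC and 13 CpG dinucleotides, against 52.4% and 6 over all windows. The motif shares given here were not adjusted for GC content. The cAMP response element TGACGTCA was in 0 of the 46 and in 1.55% of all windows, and the AP-1 site TGANTCA, read on both strands, was in 1 of the 46 (a window of Cacng5) and in 6.75% of all. The motif TATAAA, on either strand, was in 1 of the 46 (a window of Cacna1d) and in 12.4% of all windows. These matches describe letters in the windows only.

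Cacna2d3 (ENSMUSG00000021991, chromosome 14, 28904943 to 29721864, minus strand, GRCm38) encodes an alpha2delta subunit of neuronal channels. Its level was 6.29, 8.76, 4.33 and 5.72 FPKM in the morphine libraries, against 15.08, 14.36, 47.2 and 15.4 FPKM in the saline libraries. Every morphine value was below every saline value, and saline replicate 3 was about 3 times the other saline libraries. The means were 6.28 ± 1.85 FPKM in morphine and 23 ± 16.1 FPKM in saline (SD, n = 4 each), a log2 change of -1.56 ± 0.35 (SE, limma adjusted p = 0.0462). Without saline replicate 3 the change was smaller but less variable, at -1.17 ± 0.19 (SE, limma adjusted p = 0.0151). Cacna2d3 missed the threshold without morphine replicate 1, 2, 3 or 4 (limma adjusted p = 0.0885, 0.0689, 0.139 and 0.116 in that order) and without saline replicate 1 or 2 (0.0728 and 0.084), with changes between -1.72 and -1.43 in those 6 settings. The 5 genes whose log2 levels followed Cacna2d3 most closely over the 8 libraries were Acy1, Syndig1l, Nexn, Slc10a4 and Necab1, with Pearson r between 0.985 and 0.994. These values are descriptive, since Cacna2d3 itself separates the groups and saline replicate 3 lies far above the rest in it.

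Cacna2d2 (ENSMUSG00000010066, chromosome 9, 107399612 to 107529343, plus strand, GRCm38), another alpha2delta gene, whose product also binds gabapentin, had the same arrangement. It was at 1.69, 2.94, 2.15 and 2.29 FPKM in the morphine libraries and at 4.91, 4.96, 12.98 and 5.24 FPKM in the saline libraries. The groups did not overlap, and saline replicate 3 was again the highest. Cacna2d2 averaged 2.27 ± 0.516 FPKM in morphine and 7.02 ± 3.97 FPKM in saline (SD, n = 4 each), a log2 change of -1.20 ± 0.27 (SE, limma adjusted p = 0.0471). Without saline replicate 3 it was -0.90 ± 0.16 (SE, limma adjusted p = 0.022). It missed the threshold without morphine replicate 1, 2, 3 or 4 (limma adjusted p = 0.0997, 0.0761, 0.139 and 0.115) and without saline replicate 1 or 2 (0.0719 and 0.0907). The annotated antisense gene Gm17141 shares 82 of the 7947 exonic bases of Cacna2d2. The protocol names no strand marking, so reads within those shared bases cannot be told apart.

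Cacna2d1 (ENSMUSG00000040118, chromosome 5, 15934691 to 16374511, plus strand, GRCm38) had 33.32, 52.26, 51.08 and 45.05 FPKM in the morphine libraries, against 30.96, 37.31, 14.18 and 27.76 FPKM in the saline libraries. The groups overlapped, because morphine replicate 1 lay below saline replicate 2, and saline replicate 3 was the lowest. Its log2 change was 0.76 ± 0.26 (SE, 95% interval 0.18 to 1.33) and it did not pass (limma adjusted p = 0.143). Without saline replicate 3 the change was 0.48 ± 0.17 (SE, limma adjusted p = 0.162). The ratio of Cacna2d1 to Cacna2d3 within a library was 5.3, 5.97, 11.8 and 7.88 in the morphine libraries and 2.05, 2.6, 0.3 and 1.8 in the saline libraries. The summed level of the 4 alpha2delta genes was 54.4 ± 9.38 FPKM in morphine and 57.9 ± 11.8 FPKM in saline (SD, n = 4 each). Cacna2d1 made up 79.6 to 88.5% of that sum in the morphine libraries, and 57.1 to 65.6% in saline replicates 1, 2 and 4 with 18.9% in saline replicate 3. Cacna2d3 made up 7.5 to 15% of the sum in the morphine libraries and 25.2 to 63% in the saline libraries.

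**Figure D2:**
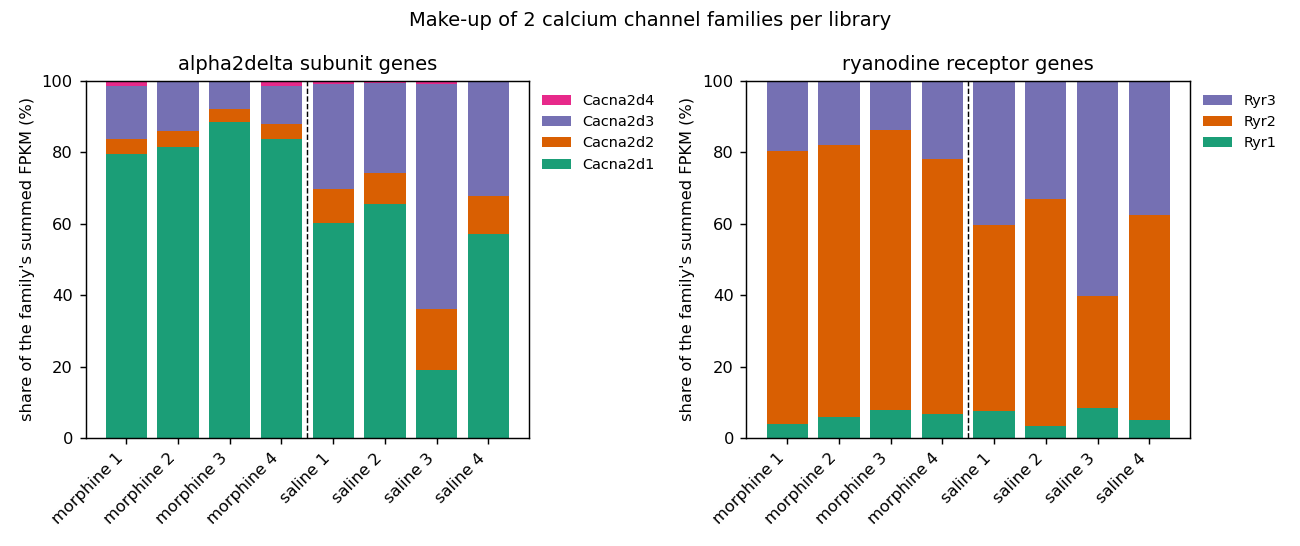
Share of each gene in the summed FPKM of its family (percent, stacked bars), for each morphine library (left of the dashed line) and each saline library (right), for the alpha2delta genes and the ryanodine receptor genes. Cacna2d1 takes 79.6% or more in every morphine library and 65.6% or less in every saline library, and Ryr3 takes 21.7% or less in morphine and 33% or more in saline.

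Marker genes of neuron classes were set beside the calcium genes. Of 16 markers of striatal projection neurons 8 fell, none rose and 8 did not pass, with a median log2 change of -2.23. Their summed level was between 498 and 621 FPKM in the morphine libraries and between 1321 and 6074 FPKM in the saline libraries, the highest in saline replicate 3, and no marker was at 0 in any library. Of 11 tested markers of cortical glutamatergic neurons 1 rose and 10 did not pass, with a median of 0.62 (8 changes above 0 and 3 below). That list summed to between 342 and 415 FPKM in the morphine libraries and between 151 and 317 FPKM in the saline libraries, the lowest in saline replicate 3, with no marker at 0. The mean log2(FPKM + 1) of the striatal list was 4.16, 3.83, 3.73 and 3.83 in the morphine libraries and 5.34, 5.24, 7.52 and 5.59 in the saline libraries. That of the cortical list was 3.99, 4.00, 3.96 and 3.88 in the morphine libraries and 3.73, 3.67, 2.33 and 3.82 in the saline libraries. Apart from saline replicate 3 the cortical list thus differed little between the groups. Saline replicate 3 thus had the highest striatal list and the highest Cacna2d2, Cacna2d3, Ryr3 and Cacng4, and the lowest cortical list and the lowest Cacna2d1. The part of these markers in the calcium gene results was not tested. Among other markers, 1 of 9 interneuron, 2 of 9 astrocyte, 2 of 7 endothelial, 1 of 8 mural and fibroblast, 1 of 4 ependymal and choroid plexus and 2 of 5 blood genes fell. Over all tested genes 1.48% passed as lower with morphine. Whether or not they passed, changes were below 0 in 6, 9, 6, 8, 4 and 5 genes of these lists, in that order. The summed level was 1475 to 1854 FPKM in the morphine libraries and 2130 to 2798 FPKM in the saline libraries for astrocyte markers, 2009 to 3192 FPKM with morphine and 3204 to 3645 FPKM with saline for oligodendrocyte markers, 52.2 to 69.6 FPKM with morphine and 85.5 to 152 FPKM with saline for mural and fibroblast markers, and 82 to 94.8 FPKM with morphine and 116 to 134 FPKM with saline for endothelial markers. These 4 pairs of ranges did not overlap. Folr1 of the ependymal list and S100a8 of the blood list were listed at 0 in at least 1 library. In the lists of oligodendrocytes (8 genes tested, all 8 with changes below 0, median -0.35), their precursors (5 tested) and microglia (7 tested) none passed.

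**Figure D3:**
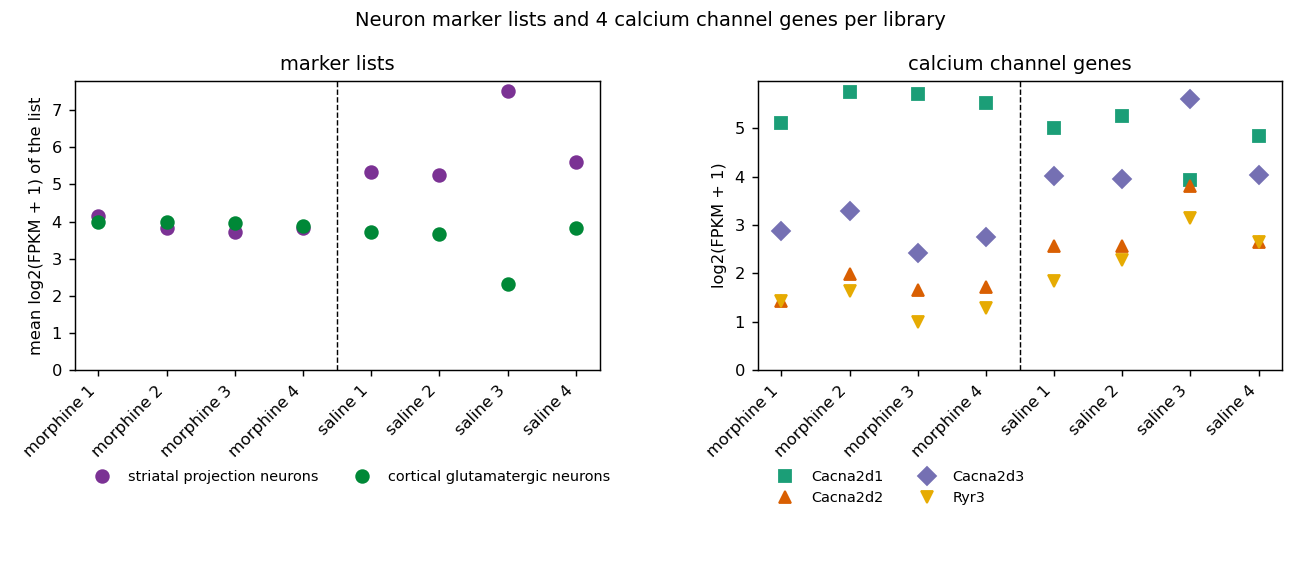
Left, mean log2(FPKM + 1) of the striatal projection neuron and cortical glutamatergic neuron marker lists in each library. Right, log2(FPKM + 1) of Cacna2d1, Cacna2d2, Cacna2d3 and Ryr3, with the morphine libraries left of the dashed line and the saline libraries right of it. Saline replicate 3 has the highest striatal list (7.52) and the lowest cortical list (2.33).

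None of the 8 tested genes for pore-forming alpha1 subunits passed. Cacna1e, which forms R-type channels, was the highest at 24.85, 26.67, 26.65 and 19.91 FPKM in the morphine libraries and 14.75, 24.47, 23.88 and 29.22 FPKM in the saline libraries. Its groups overlapped, with a log2 change of 0.11 ± 0.19 (SE, limma adjusted p = 0.784), and its sign turned without saline replicate 1 (-0.08). Cacna1e made up 41.9 to 57.1% of the summed alpha1 level in the morphine libraries and 36.9 to 51.3% in the saline libraries. Cacna1b, the N-type gene whose channel supports transmitter release and is inhibited by opioid receptors through G proteins, averaged 7.64 ± 2.18 FPKM in morphine and 10.2 ± 1.5 FPKM in saline (SD, n = 4 each, limma adjusted p = 0.285). The L-type genes Cacna1c and Cacna1d, whose channels couple activity to transcription, averaged 2.57 ± 0.373 and 2.88 ± 0.382 FPKM in morphine, and 2.75 ± 0.647 and 2.54 ± 0.862 FPKM in saline (SD, n = 4 each). The P/Q-type gene Cacna1a was at 1.54 ± 0.243 FPKM in morphine and 2.15 ± 0.912 FPKM in saline (SD, n = 4 each).

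The 3 T-type genes, whose channels open near the resting potential, differed in sign and none passed. Cacna1i was at 1.25 to 1.74 FPKM in the morphine libraries and 1.86 to 2.89 FPKM in the saline libraries, without overlap (log2 change -0.43 ± 0.15 SE, limma adjusted p = 0.142). Cacna1g was at 2.31 to 3.85 FPKM in the morphine libraries and 1.73 to 2.56 FPKM in the saline libraries, with overlap (log2 change 0.36 ± 0.16 SE, limma adjusted p = 0.24). Cacna1h, the highest of the 3, averaged 5.44 ± 1.12 FPKM in morphine and 6.38 ± 2.15 FPKM in saline (SD, n = 4 each).

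The beta subunit genes Cacnb3 and Cacnb1 were among the most abundant of the calcium genes, and none of the 4 beta genes passed. Cacnb3 (ENSMUSG00000003352, chromosome 15, 98630840 to 98644529, plus strand, GRCm38) had 78.04, 86.91, 83.05 and 91.43 FPKM in the morphine libraries, against 65.56, 73.65, 53.74 and 66.44 FPKM in the saline libraries. All morphine values were above all saline values. The log2 change was 0.39 ± 0.11 (SE, 95% interval 0.14 to 0.64), and Cacnb3 did not pass (limma adjusted p = 0.0946). Cacnb4, a beta gene linked to epilepsy and ataxia in mice, had the opposite arrangement, with 8.88 to 13.4 FPKM in the morphine libraries and 13.99 to 19.48 FPKM in the saline libraries (log2 change -0.40 ± 0.15 SE, limma adjusted p = 0.178). Exons of Cacnb4 overlap the gene A430018G15Rik on the other strand by 1433 bases, and exons of Cacna1a, Cacna1d, Cacna1h, Cacnb1, Cacnb2, Itpr1, Atp2a2 and Slc8a1 also overlap other annotated genes, so their reads may be mixed. Within a library Cacnb3 was 5.82 to 9.35 times Cacnb4 with morphine, and 2.76 to 5.26 times with saline. Since neither gene overlapped between the groups and their directions were opposite, this ratio was bound to separate the groups and is no further evidence. Cacnb1 averaged 50.3 ± 5.16 FPKM in morphine and 43.1 ± 11.7 FPKM in saline, and Cacnb2 averaged 2.62 ± 0.769 FPKM in morphine and 2.28 ± 0.708 FPKM in saline (SD, n = 4 each).

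Genes of the Cacng family, several of which act on AMPA receptors more than on calcium channels, did not pass. Cacng4 had 2.16, 1.67, 1.76 and 2.32 FPKM in the morphine libraries, against 2.98, 3.39, 6.87 and 3.18 FPKM in the saline libraries. The groups were apart and saline replicate 3 was the highest. Its log2 change was -0.72 ± 0.22 (SE, limma adjusted p = 0.0991) and -0.50 ± 0.15 without saline replicate 3 (limma adjusted p = 0.108). Cacng5 was at 6.32, 10.06, 10.95 and 25.71 FPKM in the morphine libraries and 7.5, 5.68, 8.49 and 9.51 FPKM in the saline libraries. Morphine replicate 4 alone was far above the rest, and the change was 0.55 ± 0.33 (log2, SE, limma adjusted p = 0.385), or 0.19 without that library. Cacng7 averaged 2.13 ± 0.552 FPKM in morphine and 3.14 ± 0.653 FPKM in saline, and Cacng6 averaged 2.06 ± 0.614 FPKM in morphine and 1.22 ± 0.631 FPKM in saline (SD, n = 4 each).

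**Figure D4:**
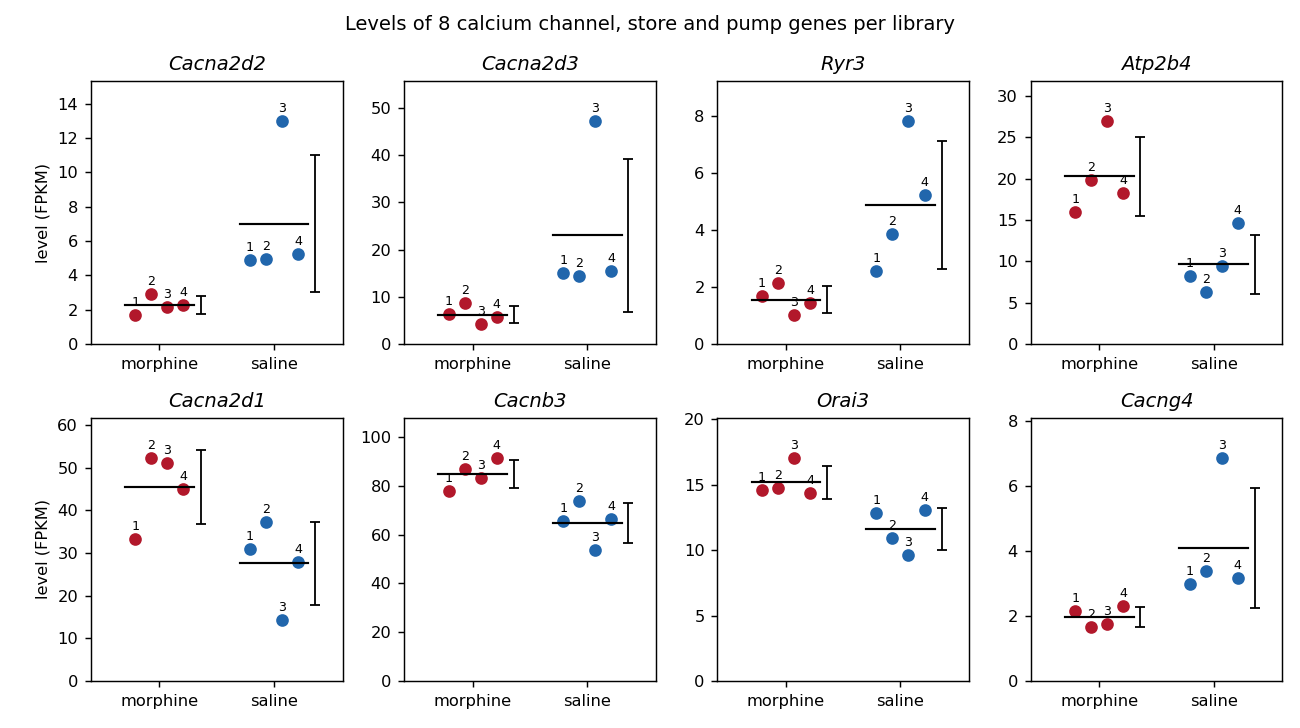
FPKM in each library of the 4 genes that passed (top row) and of 4 that did not (bottom row), morphine in red and saline in blue, with replicate numbers above the points, group means as black lines and SD as error bars (n = 4 each). Saline replicate 3 is the highest saline library for Cacna2d2, Cacna2d3, Ryr3 and Cacng4 and the lowest for Cacna2d1, Cacnb3 and Orai3.

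Among the release channels of internal stores, Ryr3 fell and the others did not pass. Ryr3 (ENSMUSG00000057378, chromosome 2, 112631355 to 113217096, minus strand, GRCm38), a ryanodine receptor gene of brain and muscle, had 1.69, 2.13, 1.01 and 1.43 FPKM in the morphine libraries, against 2.58, 3.86, 7.81 and 5.24 FPKM in the saline libraries. The groups did not overlap. The means were 1.56 ± 0.469 FPKM in morphine and 4.87 ± 2.24 FPKM in saline (SD, n = 4 each), a log2 change of -1.13 ± 0.26 (SE, limma adjusted p = 0.0481). Ryr3 passed without saline replicate 1 (log2 change -1.35, limma adjusted p = 0.0462) and missed the threshold without any one of the other libraries. Its adjusted p was 0.0908, 0.076, 0.145 and 0.12 without morphine replicate 1, 2, 3 and 4, and 0.104, 0.059 and 0.0744 without saline replicate 2, 3 and 4 (limma), with changes between -1.24 and -0.91. Exons of Ryr3 overlap the gene Aven on the other strand, which was listed at 0.35 to 1.17 FPKM in the morphine libraries and 0.33 to 0.51 FPKM in the saline libraries.

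Ryr2, the most abundant ryanodine receptor gene here, had 6.64, 8.99, 5.72 and 4.71 FPKM in the morphine libraries and 3.32, 7.43, 4.08 and 7.99 FPKM in the saline libraries. The groups overlapped widely (log2 change 0.20 ± 0.26 SE, limma adjusted p = 0.711). Leaving out 1 library gave Ryr2 changes between 0.02 (without saline replicate 1) and 0.37 (without saline replicate 4). The ratio of Ryr2 to Ryr3 was 3.93, 4.22, 5.66 and 3.29 in the morphine libraries and 1.29, 1.92, 0.522 and 1.52 in the saline libraries, so Ryr3 exceeded Ryr2 in saline replicate 3. Itpr1, the main inositol trisphosphate receptor gene of neurons, had 40.24, 40.3, 35.27 and 26.16 FPKM in the morphine libraries and 36.92, 38.16, 55.31 and 41.75 FPKM in the saline libraries. Its log2 change was -0.27 ± 0.17 (SE, limma adjusted p = 0.399), with -0.14 without morphine replicate 4 and -0.15 without saline replicate 3. Itpr1 made up 89.3 to 93.8% of the summed Itpr level in the morphine libraries and 89.5 to 92.8% in the saline libraries. Itpr2, better known from glia, averaged 3.03 ± 0.777 FPKM in morphine and 3.82 ± 0.547 FPKM in saline (SD, n = 4 each, limma adjusted p = 0.395).

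Atp2b4 was the only one of the pump and exchanger genes that passed. Atp2b4 (ENSMUSG00000026463, chromosome 1, 133699457 to 133801041, minus strand, GRCm38) encodes a plasma membrane calcium pump. It had 15.98, 19.89, 26.94 and 18.25 FPKM in the morphine libraries, against 8.19, 6.32, 9.48 and 14.63 FPKM in the saline libraries. All morphine values were above all saline values, with saline replicate 4 the closest. The means were 20.3 ± 4.73 FPKM in morphine and 9.66 ± 3.56 FPKM in saline (SD, n = 4 each), a log2 change of 1.03 ± 0.23 (SE, limma adjusted p = 0.0471). Saline replicate 3, at 9.48 FPKM, was within the range of the other saline libraries, and without it the change was 1.04 ± 0.25 (SE, limma adjusted p = 0.0597). Without saline replicate 4 it was 1.23 ± 0.19 (SE, limma adjusted p = 0.0165). Atp2b4 missed the threshold without morphine replicate 1, 2, 3 or 4 (limma adjusted p = 0.0688, 0.0935, 0.139 and 0.105) and without saline replicate 1 or 2 (0.087 and 0.112). Mitochondrially encoded genes took 6.09 to 7.94% of the summed FPKM in the morphine libraries and 9.09 to 12.6% in the saline libraries. After their removal and rescaling the change was 0.98 ± 0.23 (SE) and Atp2b4 missed the threshold (limma adjusted p = 0.0543).

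The other plasma membrane pump genes did not pass. Atp2b1 had the highest level of the 44 genes, at 394.64, 321.53, 339.05 and 347.73 FPKM in the morphine libraries and 272.45, 280.41, 379.05 and 331.9 FPKM in the saline libraries. The groups overlapped (log2 change 0.16 ± 0.13 SE, limma adjusted p = 0.532). Atp2b1 supplied 78.2 to 81.3% of the summed Atp2b level in the morphine libraries and 75.8 to 80% in the saline libraries. Atp2b4 supplied 3.29 to 6.26% of that sum with morphine and 1.71 to 3.49% with saline. Atp2b2 averaged 59.1 ± 4.77 FPKM in morphine and 70.5 ± 17.6 FPKM in saline, and Atp2b3 averaged 10.3 ± 1.97 FPKM in morphine and 9.23 ± 1.37 FPKM in saline (SD, n = 4 each).

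Atp2a2, the gene of the pump that refills the endoplasmic reticulum in most cells, had 30, 20.58, 22.46 and 25.13 FPKM in the morphine libraries and 26.14, 27.88, 28.85 and 29.58 FPKM in the saline libraries. Morphine replicates 2, 3 and 4 lay below the saline range and morphine replicate 1 lay above it (log2 change -0.20 ± 0.12 SE, limma adjusted p = 0.404). Atp2a3 averaged 1.54 ± 1.02 FPKM in morphine and 1.14 ± 0.523 FPKM in saline (SD, n = 4 each). Slc8a1, a sodium-calcium exchanger gene, had 17.36, 21.91, 21.35 and 17.67 FPKM in the morphine libraries and 10.89, 18, 7.25 and 20.81 FPKM in the saline libraries. Its groups overlapped, saline replicates 1 and 3 being the lowest of all 8 (log2 change 0.53 ± 0.27 SE, limma adjusted p = 0.302), and without saline replicate 3 the change was 0.27. The exchanger genes Slc8a2 and Slc8a3 averaged 6.17 ± 0.975 and 4.89 ± 1.79 FPKM in morphine, and 6.7 ± 0.965 and 6.17 ± 1.64 FPKM in saline (SD, n = 4 each).

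Store-operated entry genes did not pass. Orai3 had 14.56, 14.78, 17.05 and 14.33 FPKM in the morphine libraries, against 12.83, 10.96, 9.64 and 13.05 FPKM in the saline libraries. All morphine values were above all saline values, with a log2 change of 0.36 ± 0.13 (SE, 95% interval 0.09 to 0.64, limma adjusted p = 0.146). Orai2, the most abundant Orai gene, had 33.74, 32.17, 38.43 and 34.19 FPKM in the morphine libraries and 25.53, 33.28, 38.54 and 29.11 FPKM in the saline libraries, with overlap (log2 change 0.14 ± 0.13 SE, limma adjusted p = 0.6). Orai1, the best known of the family from immune cells, was at 0.77 to 2.05 FPKM in the morphine libraries and 1.04 to 3.08 FPKM in the saline libraries. Stim1, a calcium sensor of the endoplasmic reticulum, had 13.86, 15.62, 16.78 and 15.67 FPKM in the morphine libraries and 15.75, 18.42, 25.64 and 15.15 FPKM in the saline libraries. Its change was -0.23 ± 0.16 (log2, SE, limma adjusted p = 0.45), or -0.08 without saline replicate 3. Stim2, the second sensor, averaged 5.04 ± 0.519 FPKM in morphine and 4.19 ± 0.657 FPKM in saline (SD, n = 4 each). Stim2 made up 21.4 to 29.1% of the summed Stim level in the morphine libraries and 15 to 23.1% in the saline libraries.

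**Figure D5:**
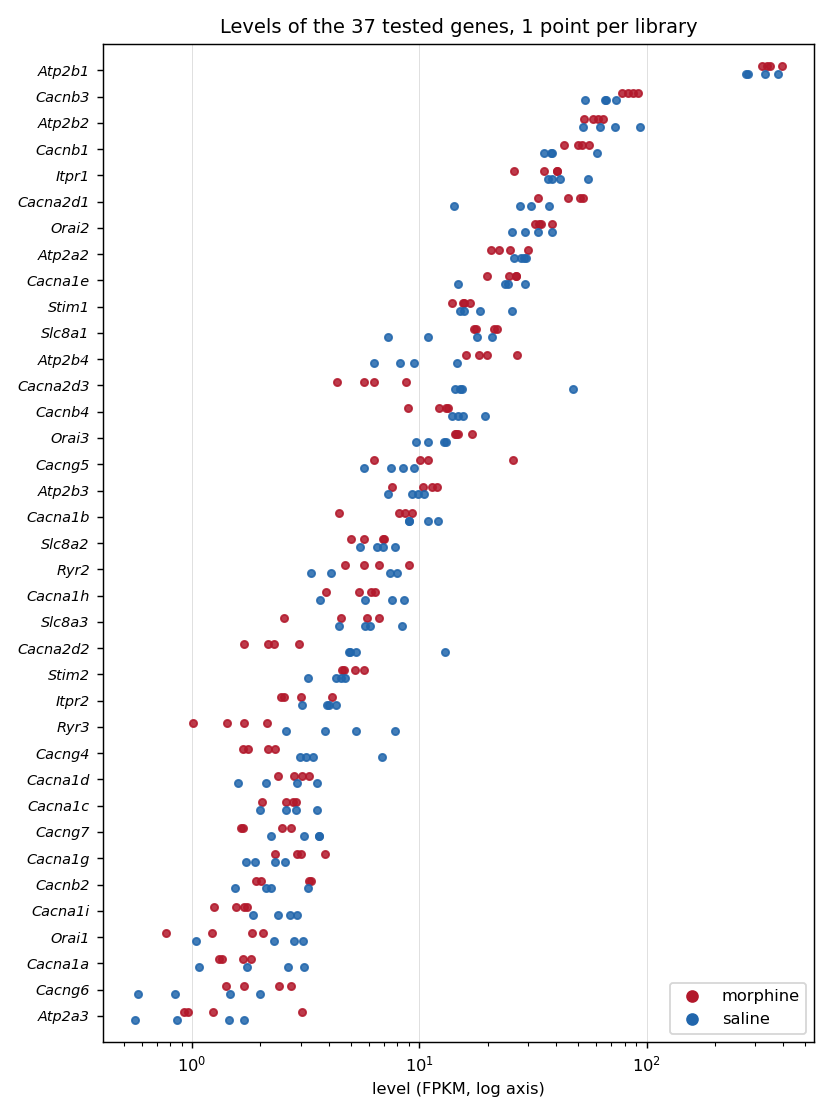
FPKM (log axis) of the 37 tested calcium genes in each library, morphine in red above saline in blue, ordered by the mean over the 8 libraries. Levels run from Atp2b1 (mean 333 FPKM over all libraries) to Atp2a3 (mean 1.34 FPKM), and the groups separate in 9 genes.

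By mean level over all 8 libraries the genes spanned a wide range. After Atp2b1 (333 FPKM) came Cacnb3 (74.9 FPKM), Atp2b2 (64.8 FPKM), Cacnb1 (46.7 FPKM), Itpr1 (39.3 FPKM), Cacna2d1 (36.5 FPKM) and Orai2 (33.1 FPKM). Except for Atp2b1, whose lowest library was above the highest library of all the others, each neighbouring pair in this order overlapped in its library values. The most abundant pore-forming gene, Cacna1e, had a mean of 23.8 FPKM, below the beta gene Cacnb3 and the alpha2delta gene Cacna2d1. In the annotation carried by the deposited table, 31 of the 44 genes are assigned to the KEGG calcium signaling pathway, which holds 316 genes of the table.

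Genes that act beside these channels and pumps were counted in lists by role, against the 2.52% of all tested genes that passed (1.04% higher and 1.48% lower). In the list of channel regulators and partners 0 of 21 tested genes passed, with a median log2 change of -0.05 (0.01 over all genes tested). Rem2, a small GTPase that inhibits voltage-gated calcium channels, had 3.87, 2.99, 2.74 and 3.35 FPKM in the morphine libraries, against 9.55, 8.11, 43.91 and 9.35 FPKM in the saline libraries. Its groups were apart and saline replicate 3 was again the highest. The change was -1.79 ± 0.43 (log2, SE, limma adjusted p = 0.0581), and without saline replicate 3 Rem2 passed (-1.24 ± 0.14, limma adjusted p = 0.005). Ahcyl1, whose product binds inositol trisphosphate receptors, averaged 33.4 ± 2.78 FPKM in morphine and 45.1 ± 3.32 FPKM in saline (SD, n = 4 each, limma adjusted p = 0.0612).

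Of 23 tested genes for calcium buffers and sensors 1 rose and 22 did not pass (median 0.20). The gene that rose was Hpcal4, a neuronal calcium sensor, at 450.97, 500.96, 611.82 and 455.03 FPKM in the morphine libraries and 216.65, 222.21, 214.94 and 350.28 FPKM in the saline libraries (log2 change 1.03 ± 0.17 SE, limma adjusted p = 0.0237). All morphine values were above all saline values. Among 18 tested genes of inositol trisphosphate supply 1 rose and 17 did not pass (median -0.07). Plch2, a phospholipase C gene, had 26.56, 26.64, 37.54 and 28.96 FPKM in the morphine libraries and 12.8, 15.67, 10.39 and 17.8 FPKM in the saline libraries (log2 change 1.04 ± 0.17 SE, limma adjusted p = 0.0227). Hpcal4 and Plch2 passed without morphine replicate 1 or saline replicate 3 or 4 and missed the threshold without morphine replicate 2, 3 or 4 or saline replicate 1 or 2 (limma adjusted p between 0.0507 and 0.0857).

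None of the 20 tested genes for mitochondrial and other calcium transport passed (median -0.01). Those with the smallest p were Slc24a3, a sodium-calcium-potassium exchanger gene with 13.2 ± 1.29 FPKM in morphine and 9.54 ± 2.13 FPKM in saline (SD, n = 4 each, limma adjusted p = 0.162), and Slc8b1, the mitochondrial exchanger gene, with 2.38 ± 0.543 FPKM in morphine and 3.62 ± 0.882 FPKM in saline (SD, n = 4 each, limma adjusted p = 0.206). None of 12 tested genes for other calcium-permeable channels passed (median 0.15). Trpc4, a cation channel gene, averaged 8.79 ± 1.96 FPKM in morphine and 4.81 ± 1.61 FPKM in saline (SD, n = 4 each, limma adjusted p = 0.0844), and passed without saline replicate 4 (limma adjusted p = 0.0337). P2rx4, an ATP-gated channel gene, averaged 4.58 ± 1.12 FPKM in morphine and 6.56 ± 1.07 FPKM in saline (SD, n = 4 each, limma adjusted p = 0.193).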

How the data were processed

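The 8 libraries, 4 of morphine and 4 of saline mice, came from nucleus accumbens tissue. Per the labels' protocols, total RNA was reverse transcribed from an oligo-dT primer with template switching and amplified by PCR, with no molecular identifiers or strand marking named. The authors deposited 1 table of FPKM values rounded to 2 decimals. The tools HISAT2, RSEM, StringTie 1.3.1, Bowtie2 2.2.8 and fastp 0.18.0 and the build mm10 are named in the submitters' processing notes, while the sources used here give neither their roles nor an annotation release. FPKM keeps no library total, and 22.5% of 4028 low values lay within 0.1 of a whole multiple of the smallest value for that gene (20% for even remainders), so no counts were recovered and no counting interval is given.

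Of 22337 Ensembl identifiers 22232 matched GENCODE M21 (GRCm38), which gave symbols and coordinates (1-based). Between any 2 libraries 0.126 to 0.284% of values at an FPKM of 1 or more were identical. Genes that reached an FPKM of 1 in 4 or more libraries entered limma 3.58.1 (R 4.3.3) on log2(FPKM + 1). The fit was two-sided, with a mean-variance trend and no block, as no label says that the replicate numbers pair animals. On simulated data for this comparison over 12536 genes, 74.8% of changes of 1 and 97.7% of changes of 2 (log2) were found. Of the calls made there, 5.48% were false. Whether these rates hold for the deposited libraries, where saline replicate 3 stood apart in marker genes, was not tested. In the deposited libraries the number of genes called ran from 0 to 450 when 1 library was left out. Per-library values are given for genes that passed, the 4 with the smallest p in each direction and the highest of each family. One of the lists of pathway genes is not reported here by its members, though its calls are in the summed count over the lists. The members and lists were chosen with earlier results of these data known. Alternatives changed the pseudocount, filter, scaling, variance prior, block and libraries used.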

Additional observations from a re-analysis of the deposited data

Results flagged for a closer look

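In 6 of 74 groups of 4 libraries (37 tested genes, morphine and saline apart) 1 library lay so far from the others that its gap, as a share of the group's range, exceeded the 95% limit of Dixon's test. Chance alone flags about 1 in 20 groups. Saline replicate 3 accounted for 4 of the 6. It was the highest saline library for Cacna2d2 (12.98 FPKM, 4.91 to 5.24 FPKM in the others, gap 0.959 of the range), Cacna2d3 (47.2 FPKM, 14.36 to 15.4 FPKM in the others, gap 0.968), Cacnb1 (60.55 FPKM, 35.21 to 38.49 FPKM in the others, gap 0.871) and Cacng4 (6.87 FPKM, 2.98 to 3.39 FPKM in the others, gap 0.895). Morphine replicate 3 was the highest morphine library for Atp2a3 (3.05 FPKM, 0.92 to 1.24 FPKM in the others, gap 0.85) and Orai3 (17.05 FPKM, 14.33 to 14.78 FPKM in the others, gap 0.835).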

How the results depend on the processing

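The calls on the calcium genes rested on adjusted p-values just under the threshold. The 4 calls remained with pseudocounts of 0.1 and 0.5 and with median-of-ratios scaling. With mitochondrially encoded genes removed 3 remained. With a filter at an FPKM of 5, which dropped Cacna2d2 and Ryr3, 2 remained. Without a filter limma called 0 of the calcium genes (10 at an unadjusted p under 0.05) and 17 genes in all. With quantile normalization it called 0 of the calcium genes (11 unadjusted), though 240 genes in all. Without the mean-variance trend it called 0 of them (13 unadjusted), though 236 genes in all. In both settings the adjusted p of the 4 genes lay between 0.0512 and 0.0609 (limma). Leaving out 1 library gave 0 to 3 calcium genes and 0 to 450 genes in all. The 4 genes kept their direction in every setting that tested them. The sign of Cacna1e turned without saline replicate 1 (-0.08, with 0.24 the highest change when 1 library was left out), and of the other named calcium genes none changed sign in any setting. The cause of the lost calls was not tested. Removing the filter raised the number of genes adjusted for to 19607 and also changed the fits. The SE without it was 0.29 for Cacna2d2, 0.37 for Cacna2d3, 0.28 for Ryr3 and 0.24 for Atp2b4, against 0.27, 0.35, 0.26 and 0.23 with it. Rem2 passed with a pseudocount of 0.1 (limma adjusted p = 0.049) and with mitochondrially encoded genes removed (0.0479), and Ahcyl1 passed with those genes removed (0.037) and with quantile normalization (0.0441).

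With the replicate number as a block limma called 0 calcium genes (9 unadjusted), 0 genes of the pathway lists and 5 genes in all. Same-numbered libraries correlated between -0.205 and 0.0522 in their deviations from the group means. Of 4 morphine libraries 1 correlated best with its own number. With 4 libraries per group these values show no pairing by number but cannot exclude it.

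The 3 calls in the pathway lists became 0 without a filter, 5 with mitochondrially encoded genes removed, and 0 to 6 when 1 library was left out. Read depth is unknown, so the error of genes near an FPKM of 1 cannot be split into counting and biological parts.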

Other observations

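Morphine replicate 4, which had the highest Cacng5 (25.71 FPKM, against 6.32 to 10.95 FPKM in the other morphine libraries), also had the highest level of Gad1, a GABA synthesis gene of inhibitory neurons. Gad1 was at 100.23, 128.12, 90.79 and 272.33 FPKM in the morphine libraries and 131.47, 114.23, 233.67 and 122.07 FPKM in the saline libraries. Gad1 was chosen after its values were seen. The 9 interneuron markers, Gad1 among them, summed to 1567, 1133, 1044 and 975.8 FPKM in the morphine libraries, the lowest in morphine replicate 4. Their sum was 1222, 843.8, 690.9 and 1022 FPKM in the saline libraries. Any link between Cacng5 and Gad1 was not tested.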
